A study of Mus musculus with 12 samples.

Results

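TEC transcripts are annotated loci whose status still awaits an experimental check, and 830 of the 2789 rows of the annotated long non-coding RNA table carry that class (Gene_type TEC). Each of the 830 transcripts belongs to a gene of its own. They were measured in 12 RNA libraries from C57BL/6 mice aged 8 weeks, in 4 groups of 3 libraries. STG and CTG are trigeminal ganglia (TG), and SSp5C and CSp5C are the caudal part of the spinal trigeminal nucleus (Sp5C), the brainstem relay of the ganglion's pain fibres. The study's title concerns mice with chronic inflammatory pain of the temporomandibular joint. The letters S and C are not explained in the labels used here and are kept, and differences between them are given as C minus S. All libraries were made from total RNA after removal of ribosomal RNA, without poly(A) selection, with a kit that keeps the strand. Whether each library stems from an animal of its own is not stated, and p-values therefore measure only how far these libraries spread. The other large classes of the same table, used as a comparison, were lincRNA (717 rows), antisense (500), processed transcript (469) and sense intronic (163).

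TEC is a GENCODE class for unspliced clusters of expressed sequence tags that carry features of a 3′ end, for which neither a coding nor a non-coding role has been settled. Most of a gene's primary transcript is intron, which is removed and degraded during splicing, and RNA preparations that are not selected for poly(A) tails keep some of it. A stretch of sequence read from within an intron can therefore stem from an RNA of its own or from the unspliced transcript of the gene around it, and FPKM values, fragment counts scaled by transcript length and library size, do not tell these apart. Cleavage and polyadenylation at a 3′ end is usually directed by the hexamer AATAAA or its variant ATTAAA, a short distance upstream of the end.

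Placed by their transcript identifier in GENCODE M21 (GRCm38), 829 of the 830 transcripts were found, all with the same version and all still classed as TEC. Of these, 828 had a single exon and 1, Gm37711, had 2, against 6.70% single-exon transcripts among lincRNA rows. Their median length was 2354 bases, with a range of 166 to 30942, and their median GC content was 41.2% against 47.3% in lincRNA. In all, 714 of them (86.1%) lay wholly inside introns of a protein-coding gene on the same strand, which is called the host here. A further 29 overlapped a host's exon, 17 overlapped a protein-coding gene on the opposite strand only, and 69 overlapped none. Among lincRNA rows 1.26% lay in a host intron, and among sense intronic rows 99.4% did. By chromosome, 139 members lay on chromosome 5, 129 on chromosome 1 and 96 on chromosome 7, and 1 lay on chromosome X.

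The annotated 3′ ends show how members differ among themselves. The last 60 bases of 8 transcripts are printed because these had the largest differences between the tissues, 4 lower and 4 higher in TG, among those that overlap no untranslated region of a protein-coding gene. They are in the transcript's own direction, 5′ to 3′, from GENCODE M21 on GRCm38, and capitals mark AATAAA or ATTAAA where either falls in the last 50 bases.
Gm19439: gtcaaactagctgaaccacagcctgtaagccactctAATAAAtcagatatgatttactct
Gm42583: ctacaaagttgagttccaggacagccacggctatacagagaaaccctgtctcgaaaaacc
A230103L15Rik: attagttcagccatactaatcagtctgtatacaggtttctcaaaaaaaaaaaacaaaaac
Gm49069: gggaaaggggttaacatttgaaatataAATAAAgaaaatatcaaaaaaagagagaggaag
Gm43921: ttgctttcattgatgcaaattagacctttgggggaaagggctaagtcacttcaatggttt
Gm37626: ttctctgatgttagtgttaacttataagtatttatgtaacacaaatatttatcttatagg
2010008C14Rik: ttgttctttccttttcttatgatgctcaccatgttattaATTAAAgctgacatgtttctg
Gm49310: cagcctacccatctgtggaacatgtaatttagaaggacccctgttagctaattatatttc
These ends lie at chr3:88033091-88033150 (plus strand, Gm19439), chr6:21265561-21265620 (plus, Gm42583), chr7:59327318-59327377 (minus, A230103L15Rik), chr14:124608482-124608541 (minus, Gm49069), chr6:4507819-4507878 (plus, Gm43921), chr1:44565388-44565447 (plus, Gm37626), chr6:125083970-125084029 (plus, 2010008C14Rik) and chr14:48137187-48137246 (plus, Gm49310). A hexamer stands in 3 of the 8, with 18 bases after it in Gm19439, 27 in Gm49069 and 15 in 2010008C14Rik. Gm19439 and 2010008C14Rik overlap no protein-coding gene, while Gm49069 lies in an intron of Fgf14.

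Over all placed members the hexamer was less common than among lincRNA, antisense, processed transcript and sense intronic rows, and its share depended on where the member lies. It was in the last 50 bases of 191 of 829 members (23.0%), of which 138 had AATAAA, 63 had ATTAAA and 10 had both. The share was 51.1% in lincRNA, 30.1% in sense intronic rows and 33.7% of all 141767 transcripts of GENCODE M21. Within the members it was 19.3% of the 714 in host introns, 24.1% of the 29 overlapping a host exon, 49.3% of the 69 with no overlap and 70.6% of the 17 on the opposite strand only. The hexamers on the other strand (TTTATT or TTTAAT) were in the last 50 bases of 7.72% of members, and the first 50 bases of members held AATAAA or ATTAAA in 7.36%. These shares describe letters only, and a member without them in this window was not shown to lack a 3′ end.

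**Figure D1:**
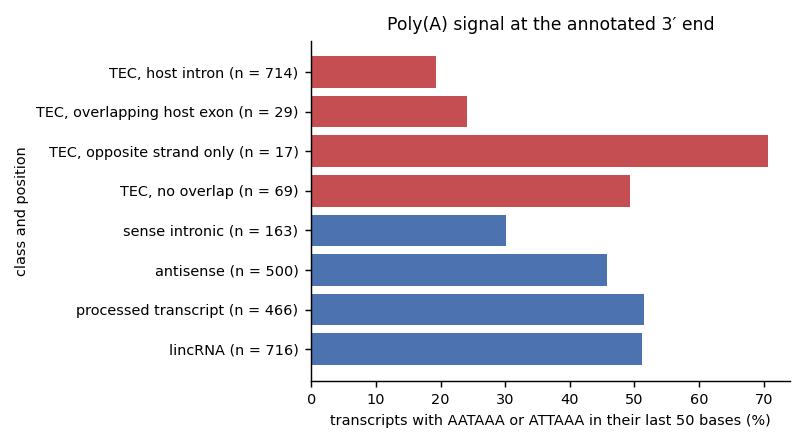
Horizontal bars give the percent of transcripts with AATAAA or ATTAAA in their last 50 bases, in red for TEC transcripts by position and in blue for other classes of the same table, with the number of transcripts in brackets. TEC transcripts in host introns were at 19.3% and those overlapping no protein-coding gene at 49.3%, beside 51.1% in lincRNA.

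The libraries held between 22600000 (CSp5C replicate 3) and 31800000 fragments (CTG replicate 3), an estimate rounded to 3 digits and read from the smallest step of FPKM times length in protein-coding genes with 1 transcript. Between 43.5% and 48.3% of low values were whole fragments within 0.05, so the values were not turned back into counts. Of the marker lists, all 13 measured sensory neuron genes and 9 of 10 Schwann cell genes (1 lower) were higher in TG, and all 10 genes of inhibitory and central neurons, all 7 of astrocytes, all 8 of oligodendrocytes and all 7 of hindbrain position were higher in Sp5C (limma with Benjamini-Hochberg adjustment, over all protein-coding genes). The 7 satellite glia genes were split, with 3 higher and 4 lower in TG and a summed FPKM of 1432 to 1865 in TG against 2578 to 3468 in Sp5C. STG replicate 1 also had a summed FPKM of 2874 for 8 pituitary genes, against 2.57 to 51.7 in the other TG libraries. CTG replicates 1 and 3 had 925 and 306 for 10 granulocyte and bone marrow genes, against 4.15 to 35.6 in the other 10 libraries. CTG replicate 1 also had 106 for 7 bone and cartilage genes (7.18 to 19.4 elsewhere) and 17.8 for 6 skeletal muscle genes (0.652 to 1.74 elsewhere). In whole tissue, fewer cells of a type and less RNA per cell cannot be told apart.

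Members were weak but rarely silent. The median of their mean FPKM over the 12 libraries was 0.736 (quartiles 0.451 and 1.23), beside 0.606 over all rows, 0.724 in sense intronic rows and 0.531 in lincRNA. In all, 807 members (97.2%) were above 0 in every library, against 94.5% of sense intronic and 64.7% of lincRNA rows, and 67 of the 9960 values were 0. With the estimated depth, the median single-exon member rested on 33.5 fragments in SSp5C replicate 1 to 63.0 in STG replicate 1. Only 6 members had a mean of at least 5 FPKM, and 288 had at least 1. The filter used for testing, a mean of at least 0.5 FPKM, kept 577 members over the 12 libraries, 569 over the 6 TG libraries and 568 over the 6 Sp5C libraries.

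The member with the highest level was RP24-464B16.1, the transcript that GENCODE M21 does not hold and for which no position or sequence is given here. Its FPKM was 41.9, 48.5 and 44.8 in STG, 38.8, 46.7 and 40.5 in CTG, 71.1, 80.5 and 82.2 in SSp5C and 78.0, 83.2 and 80.2 in CSp5C. All Sp5C libraries stood above all TG libraries, and the log2 difference of TG minus Sp5C was -0.86 ± 0.06 (SE, adjusted p = 7.08e-08, limma). Gm42732 (chr5:73311364-73312560, plus strand), in an intron of Ociad1, was second with 16.9 ± 1.33 in TG and 30.6 ± 1.81 in Sp5C (SD, n = 6). It was lower in TG by a similar amount (-0.83 ± 0.07, adjusted p = 2.56e-07, limma), and Ociad1 itself was lower too (-0.50 ± 0.04, adjusted p = 9.21e-07, limma). Gm42433 in Map4, a microtubule-binding protein, was at 8.64 ± 1.0 and 9.58 ± 1.10 FPKM and its difference did not pass the test (adjusted p = 0.229). Gm49338, which lies opposite Bace1, the β-secretase gene, was at 7.22 ± 0.631 and 7.71 ± 0.307 (adjusted p = 0.316), and Gm10524, opposite Zfp236, was at 6.00 ± 0.534 and 6.72 ± 0.465 (adjusted p = 0.117). Of the other 5 members among the 10 with the highest level, Gm36989 (in Matr3), Gm45809 (in Nek1), Gm49502 (in Srebf2, a sterol-sensing transcription factor) and Gm45223 (in Picalm, a clathrin adaptor) were higher in TG, and C230086J09Rik (in Pcdh9, a protocadherin) was lower. Nek1, Srebf2 and Pcdh9 differed in the direction of their members. Matr3 was lower in TG (-0.67 ± 0.11, adjusted p = 0.000253, limma), unlike Gm36989, and Picalm did not pass (0.04 ± 0.04, adjusted p = 0.464). Among C libraries alone Gm36989 had a difference of -0.08 (adjusted p = 0.759), and Gm49502 and Gm45223 did not pass, and among S libraries alone C230086J09Rik did not. C230086J09Rik, whose libraries overlap between the tissues, was at 5.3, 2.08 and 3.38 FPKM in STG, 2.86, 1.65 and 2.21 in CTG, 4.2, 3.52 and 6.08 in SSp5C and 6.17, 4.33 and 7.5 in CSp5C.

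TG and Sp5C differed in 51.0% of tested members, beside 53.7% of all tested rows, and more of these members were higher in TG than lower. Of 577 tested members, 199 (34.5%) were higher in TG at an adjusted p under 0.05 (background over all 1611 tested rows: 28.2%) and 95 (16.5%) were lower (background 25.5%). Every background given is a share over all tested rows, the members included. Sense intronic rows were close to this, with 31.3% higher and 16.5% lower of 115. By position, 181 of the 498 tested members in host introns were higher and 72 lower, while 9 of the 44 with no overlap were higher and 15 lower. A difference of at least 1 on the log2 scale accompanied 41 higher and 21 lower calls among the 577 members, and 152 and 150 among all 1611 tested rows. The 6 TG libraries all lay above the 6 Sp5C libraries in 100 members and all below in 45 (background 15.7% and 15.8% of rows; 17.3% and 7.80% of members). The median difference was 0.14 over members, 0.17 in sense intronic rows and 0.04 over all rows. The balance of calls moved with the letter, over members and over all rows. Among S libraries alone 260 of 592 members were higher (background 32.2%) and 45 lower (background 17.6%), with a median of 0.39 beside 0.21 over all rows. Among C libraries alone 68 of 574 members were higher (background 13.6%) and 122 lower (background 26%), with a median of -0.10 beside -0.13. Members of at least 1 FPKM gave 121 higher and 49 lower of 288, and weaker ones 78 and 46 of 289. With a hexamer in the last 50 bases 36 were higher and 27 lower of 129, and without it 163 and 67 of 447. Shares over all rows by position, level or hexamer are not given here, so these splits are not read against a background.

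**Figure D2:**
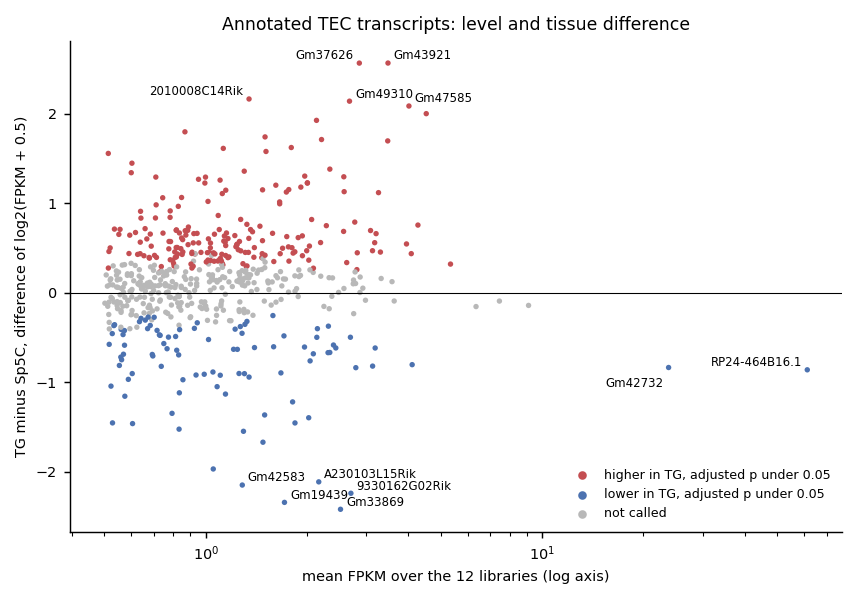
Each point is 1 of the 577 tested TEC transcripts, with its mean FPKM over the 12 libraries on a log axis and the TG minus Sp5C difference of log2(FPKM + 0.5) on the other. Red (199) and blue (95) points passed an adjusted p under 0.05, and both members above 10 FPKM, RP24-464B16.1 and Gm42732, were lower in TG.

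Of the 10 largest differences with higher values in TG, 9 were in members with a host. Gm43921 (chr6:4506087-4507878, plus strand) lies in an intron of Col1a2, a chain of type I collagen made by fibroblasts. It was at 6.41, 6.40 and 8.48 FPKM in STG and 6.10, 6.23 and 4.18 in CTG, against 0.208, 0.862 and 0.453 in SSp5C and 0.770, 0.919 and 0.754 in CSp5C. Every TG library exceeded every Sp5C library, and the log2 difference was 2.57 ± 0.16 (SE, adjusted p = 1.43e-08, limma), beside 3.84 ± 0.29 for Col1a2. Gm37626 (chr1:44560885-44565447, plus strand) and Gm38110 (chr1:44756942-44758492, plus strand) both lie in introns of Gulp1, an adaptor of the engulfment pathway. Gm37626 averaged 5.27 ± 1.26 in TG against 0.457 ± 0.0537 FPKM in Sp5C (SD, n = 6; 2.56 ± 0.09, adjusted p = 1.23e-10, limma), Gm38110 at 1.62 ± 0.175 and 0.111 ± 0.0457 (1.80 ± 0.09), and Gulp1 differed by 2.62 ± 0.08. 2010008C14Rik (chr6:125083437-125084029, plus strand) overlaps no protein-coding gene and starts 965 bases from the end of Lpar5, a lysophosphatidic acid receptor. It was at 2.73, 2.68 and 2.75 FPKM in STG, 2.32, 2.86 and 1.74 in CTG, and between 0.0600 and 0.382 in the Sp5C libraries, so the tissues did not overlap (2.16 ± 0.13, adjusted p = 1.68e-08, limma). Gm49310 in Peli2, a ubiquitin ligase, differed by 2.14 ± 0.10, Gm47585 in 2010111I01Rik by 2.09 ± 0.10, and Gm36962 in Lama2, a laminin chain of basement membranes, by 1.93 ± 0.11. Gm45809 (chr8:61050049-61053942, plus strand), which overlaps an exon of the kinase gene Nek1, was at 7.57 ± 2.15 and 1.47 ± 0.248 FPKM (2.0 ± 0.10, adjusted p = 2.55e-09, limma), and Nek1 differed by 1.97 ± 0.05. Gm48998, overlapping an exon of the diacylglycerol kinase gene Dgkh, differed by 1.74 ± 0.13 and Gm48798, in Utrn (utrophin), by 1.71 ± 0.14.

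Of the 10 largest differences with lower values in TG, 5 were in members with a host, on the 4 genes Nova1, Kcnd2, Fgf14 and Anks1b. Gm33869 (chr12:46701075-46704216, minus strand) overlaps an exon of Nova1, a neuronal splicing factor, so fragments may be shared with it. It was at 0.812, 0.354 and 0.631 FPKM in STG, 0.395, 0.291 and 0.269 in CTG, 4.31, 3.70 and 4.47 in SSp5C and 4.05, 4.84 and 6.06 in CSp5C. The tissues were far apart, with a log2 difference of -2.42 ± 0.13 (SE, adjusted p = 3.18e-09, limma) beside -3.85 ± 0.08 for Nova1. Gm48542, in an intron of Nova1, was also lower (-1.52 ± 0.10). Gm19439 (chr3:88030878-88033150, plus strand) overlaps no protein-coding gene and was at 0.145, 0.196 and 0.0383 FPKM in STG and 0.411, 0.270 and 0.116 in CTG. In Sp5C it was at 2.73, 1.56 and 1.77 in SSp5C and 3.38, 4.89 and 5.05 in CSp5C, above TG in every library (-2.34 ± 0.15, adjusted p = 1.96e-08, limma). Gm42583 (chr6:21258921-21265620, plus strand) lies in Kcnd2, the gene of the A-type potassium channel Kv4.2, and was at 0.158 ± 0.186 and 2.41 ± 0.786 FPKM (SD, n = 6; -2.15 ± 0.16, adjusted p = 9.60e-08, limma). Gm49069 in Fgf14, a regulator of sodium channels, differed by -1.97 ± 0.13, Gm47590 in Anks1b, a postsynaptic protein, by -1.55 ± 0.13, and Gm37345, which overlaps no protein-coding gene, by -1.46 ± 0.10.

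**Figure D3:**
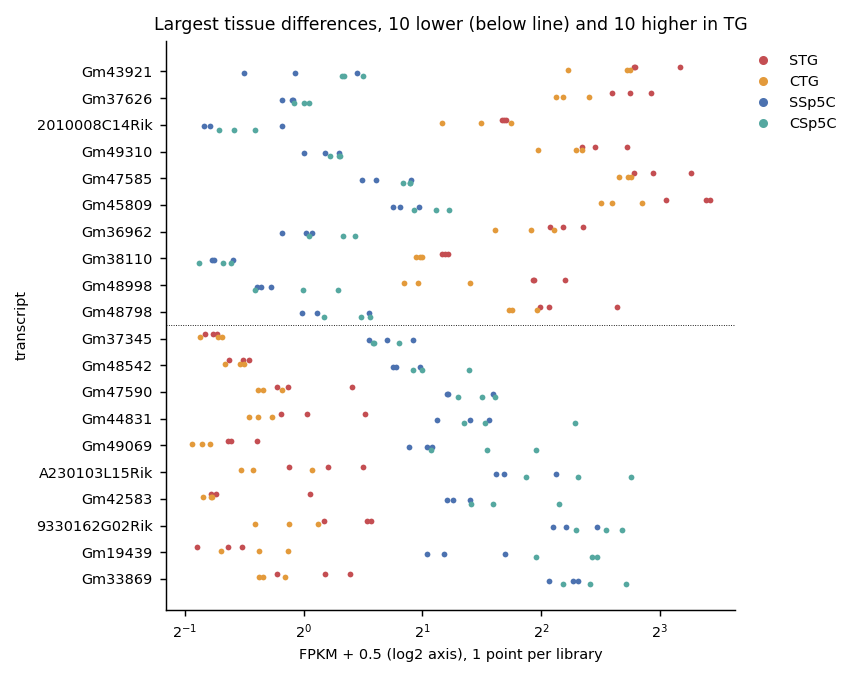
Each row is a TEC transcript and each point the FPKM + 0.5 of 1 library on a log2 axis, coloured by group; the 10 largest differences in each direction among members called and without overlap are shown. In all 20 transcripts the TG libraries (red and orange) lie wholly on one side of the Sp5C libraries (blue and green), for example 2010008C14Rik at 1.74 FPKM or more in TG and at most 0.382 in Sp5C.

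The minus strand around Ube3a on chromosome 7 carried 3 of the 10 largest decreases. This stretch is the imprinted region of the Prader-Willi and Angelman syndromes: Snhg14, a very long non-coding transcript that hosts small nucleolar RNAs, is made in neurons from the paternal copy and runs on as the antisense of Ube3a. A230103L15Rik (chr7:59327318-59331189) and Gm44831 (chr7:59627688-59630676) lie in introns of Snhg14 in GENCODE M21, and 9330162G02Rik (chr7:59223847-59254788), at 30942 bases the longest member, lies opposite Ube3a. Since no source states that fragments were counted by strand, those of 9330162G02Rik and Ube3a cannot be told apart with certainty, and the same holds for the other members opposite a gene. 9330162G02Rik was at 0.950, 0.979 and 0.626 FPKM in STG, 0.420, 0.587 and 0.255 in CTG, 4.11, 3.78 and 5.05 in SSp5C and 4.40, 5.92 and 5.33 in CSp5C. Every TG library lay below every Sp5C library (-2.24 ± 0.13, adjusted p = 5.94e-09, limma). A230103L15Rik averaged 0.496 ± 0.269 in TG against 3.84 ± 1.38 FPKM in Sp5C (SD, n = 6; -2.11 ± 0.17, adjusted p = 2.51e-07, limma), and Gm44831 at 0.442 ± 0.259 and 2.52 ± 0.957 (-1.67 ± 0.17, adjusted p = 1.93e-06, limma). All 10 listed transcripts of Snhg14 itself were lower in TG as well, with log2 differences of -2.76 to -1.01 and a summed FPKM of 14.4 in TG and 83.7 in Sp5C. Ube3a was at 32.1 ± 1.04 and 32.7 ± 1.93 FPKM and its difference did not pass the test (-0.02 ± 0.04, adjusted p = 0.614), and Snrpn, upstream of Snhg14, was lower in TG by less than the members (-0.33 ± 0.06, adjusted p = 0.000297, limma).

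Only 8 members with no protein-coding gene around them lay inside another long non-coding gene on their strand, all 8 in introns, and all 8 were called between the tissues (background 53.7% of rows), 3 higher and 5 lower in TG. Of these, only members in Snhg14 and Sox2ot are set beside their non-coding gene here, and the others were not compared with theirs. Gm42692 (chr3:34643264-34646096, plus strand) lies in an intron of Sox2ot, the non-coding gene around Sox2, which is a transcription factor of neural stem and glial cells. It was at 1.88 ± 0.417 FPKM in TG and 3.71 ± 0.361 in Sp5C (-0.84 ± 0.09, adjusted p = 5.58e-06, limma), and both listed Sox2ot transcripts were lower in TG, with differences of -1.31 and -0.68.

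Members and their hosts mostly differed between the tissues in the same direction. The host was measured for 512 tested members on 449 host genes, and every one of the 512 was below its host's level per length, at a median of 6.15% of it. The signs of both differences were equal in 364 of 512 (71.1%), with Pearson r = 0.764 and Spearman rho = 0.632 across members, which share libraries and in part hosts and are no independent replicates. The sign was shared in 347 of 492 members in introns, in 17 of 20 that overlap a host exon and in 5 of 14 with a gene on the opposite strand only. For sense intronic rows it was 72 of 113 (63.7%). Of 207 members that passed the test with a host that also passed, 177 (85.5%) moved with the host and 30 the other way, where 36.5% of all tested protein-coding genes were higher and 34.3% lower in TG. These counts are descriptions without a test.

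Among those widest apart were 2 members that passed the test in the other direction than their host. Gm37060 in Rasal2, a Ras GTPase-activating protein, was at 1.67, 1.02 and 0.946 FPKM in STG, 0.993, 0.917 and 0.697 in CTG, 1.13, 1.16 and 1.26 in SSp5C and 1.75, 1.72 and 1.94 in CSp5C. It was lower in TG (-0.38 ± 0.11, adjusted p = 0.0122, limma) while Rasal2 was higher (1.62 ± 0.05), and among S libraries alone its difference was 0.00 with an adjusted p of 0.996. Gm43281 in Limch1, an activator of non-muscle myosin, was lower (0.292 ± 0.10 against 0.832 ± 0.188 FPKM; -0.75 ± 0.11, adjusted p = 6.08e-05, limma) while Limch1 was higher (0.82 ± 0.06).

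**Figure D4:**
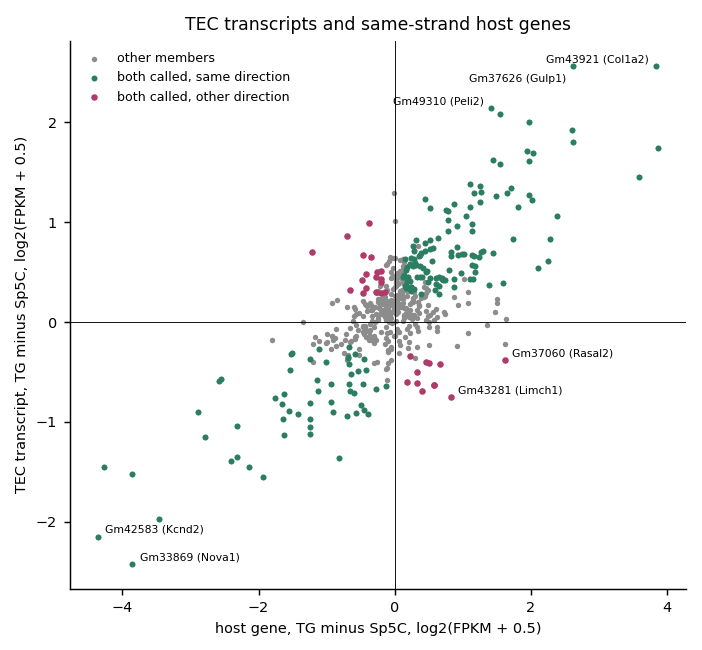
Each point is 1 of 512 TEC transcripts, with the TG minus Sp5C difference of its host gene on the horizontal axis and its own on the vertical axis, both of log2(FPKM + 0.5). Green points (177) are called with their host in the same direction and magenta points (30) in the other, among them Gm43281 in Limch1.

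Some hosts carried several members. In all, 743 members lay on the strand of 649 hosts, and 78 hosts carried at least 2. Among 52 hosts with at least 2 tested members (116 members), all members shared a sign in 41. Over all tested members 64.8% were higher in TG, so many would share a sign in any case. The SD of the differences within a host had a median of 0.14 (log2), beside 0.63 over all tested members. An SD of so few values tends to be low, so these SDs are not compared like for like. All 4 members in Dlg2, a postsynaptic scaffold gene, were lower in TG, with log2 differences of -1.12 for Gm45176, -0.81 for Gm44677, -0.97 for Gm45130 and -1.05 for B230206I08Rik, beside -1.24 for Dlg2. Ank2, which encodes ankyrin-B, carried 6 members and was itself higher in TG by 0.33. Of its members Gm43751 (-0.61, adjusted p = 0.00245, limma) and Gm43322 (-0.50, adjusted p = 0.000999, limma) were lower in TG, and the other 4 did not pass (adjusted p from 0.0888 to 0.825). Of the 4 in Kcnip4, a subunit of A-type potassium channels, Gm42770 and Gm42771 were lower in TG with -0.63 each (adjusted p = 0.00656 and 0.0205, limma), while Kcnip4 differed by 0.57. Among S libraries alone these 4 calls in Ank2 and Kcnip4 did not pass (adjusted p from 0.434 to 0.964), and that of Gm42771 did not without STG replicate 3 or CTG replicate 1 (adjusted p = 0.0538 and 0.0536, limma).

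In TG no member passed the test between CTG and STG, yet nearly all lay lower in CTG. Of 569 tested members 0 were called (lowest adjusted p = 0.102, limma; background 0.131% of 1522 rows lower, 0 higher), and 169 had an unadjusted p under 0.05 (29.7%; background 21.9%). The difference was negative in 547 and positive in 22, so 96.1% were lower, where 82.5% of all rows were. The median was -0.29 over members, -0.30 in sense intronic rows, -0.13 in lincRNA and -0.23 over all rows. All 3 CTG libraries lay below all 3 STG libraries in 249 members (43.8%; background 30.2%) and above them in 2 (background 0.986%). The members' hosts leaned the same way by less: 65.1% of 444 hosts were lower, with a median of -0.04 beside -0.01 over all protein-coding genes, and 0 of them passed. Members in host introns had a median of -0.30, those with no overlap -0.16 and those with an opposite-strand gene only -0.07. In a fit of all 12 libraries, which share one estimate of the spread, 6 of 569 members were called lower in CTG (background 0.723% of 1522 rows).

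By the smallest p in each direction, 6 members are described for TG. Gm48267 (chr14:12400698-12402230, minus strand) in Cadps, a priming factor of dense-core vesicles, was at 1.62, 1.5 and 1.32 FPKM in STG and 0.505, 0.664 and 0.445 in CTG. Its groups did not overlap, and the log2 difference of CTG minus STG was -0.93 ± 0.15 (SE, adjusted p = 0.102, limma), beside 0.06 for Cadps. Gm48998 in Dgkh was at 4.11, 3.34 and 3.31 in STG and 1.3, 2.14 and 1.46 in CTG (-0.95 ± 0.18, adjusted p = 0.136, limma), beside -0.10 for Dgkh. Both passed in the fit of all 12 libraries, each with an adjusted p of 0.0371. Gm37795, which overlaps no protein-coding gene, was at 2.91, 2.44 and 2.71 in STG and 1.43, 1.65 and 1.55 in CTG (-0.64 ± 0.13, adjusted p = 0.136, limma). On the positive side Gm47976 had a difference of 0.45 ± 0.20, Gm45102 in Ttc23 of 0.51 ± 0.25 and Gm42847 of 0.25 ± 0.13, with adjusted p-values of 0.232, 0.265 and 0.283.

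In Sp5C the members lay on the other side: most were higher in CSp5C, and again none passed. Of 568 tested members 0 were called (lowest adjusted p = 0.522, limma; background 0.0626% of 1597 rows higher, 0 lower), and 70 had an unadjusted p under 0.05 (12.3%; background 8.7%). The difference was positive in 512 (90.1%) and negative in 56, beside 71.6% positive over all rows. The median was 0.22 over members, 0.21 in sense intronic rows, 0.06 in lincRNA and 0.13 over all rows. All 3 CSp5C libraries lay above all 3 SSp5C libraries in 124 members (21.8%; background 12.4%) and below them in 1 (background 2.44%). Of 443 hosts 58.7% were higher, with a median of 0.02 beside 0.00 over all protein-coding genes, and 0 of them passed. Members in host introns had a median of 0.24 and those with no overlap 0.10. Some marker lists differed between the Sp5C libraries as well. The summed FPKM of 8 oligodendrocyte genes was 4418, 4209 and 4341 in SSp5C and lower in every CSp5C library, at 3852, 3709 and 2904. For 5 choroid plexus genes it was 1.12 to 12.9 in SSp5C and 20.8, 3.75 and 55.7 in CSp5C, so these groups overlapped. The 7 astrocyte genes overlapped too, at 791 to 965 in SSp5C and 709 to 972 in CSp5C. CSp5C replicate 3 was the lowest Sp5C library for oligodendrocyte genes and the highest for choroid plexus genes. Their part in the result was not tested.

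Gm19439, already named for its difference between the tissues, had the largest positive difference among the 3 members with the smallest p in Sp5C. Its CSp5C libraries (3.38 to 5.05) all lay above its SSp5C libraries (1.56 to 2.73), and the log2 difference was 0.98 ± 0.21 (SE, adjusted p = 0.522, limma). Gm38157 (chr1:34032100-34033797, plus strand) in Dst, a cytoskeletal linker, was at 1.01, 0.980 and 1.47 in SSp5C and 1.79, 2.08 and 2.30 in CSp5C (0.64 ± 0.17, adjusted p = 0.522, limma). 4633401B06Rik in Abcd3, a peroxisomal transporter, was at 0.712, 0.690 and 0.666 in SSp5C and 1.03, 1.18 and 1.25 in CSp5C (0.47 ± 0.13, adjusted p = 0.522, limma). Its groups did not overlap either. Negative differences were -0.17 ± 0.13 for Gm42692 in Sox2ot, -0.28 ± 0.22 for Gm48562 in Arcn1 and -0.18 ± 0.14 for Gm9954, opposite Nwd2, each with an adjusted p of 0.620.

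The C minus S difference itself differed in sign between the tissues for most members, but no member passed the test of that difference. Of 577 members 0 were called (lowest adjusted p = 0.0700, limma; background 0 of 1611 rows), and 297 had an unadjusted p under 0.05 (51.5%; background 29.4%). The difference of both effects, TG minus Sp5C, was negative in 560 members (97.1%, beside 81.3% of rows) with a median of -0.51, and -0.37 over all rows. Without CSp5C replicate 1, 96 of 581 members were called negative (background 9.6% of 1615 rows), and with transcripts summed to genes 32 of 577 were (background 3.07% of 1431 genes). Gm48267 had the smallest p with -1.33 ± 0.26 (adjusted p = 0.0700), followed by Gm43322 in Ank2 with -0.97 ± 0.20 (adjusted p = 0.0700). Both passed with gene sums (each with an adjusted p of 0.0477, limma) and without CSp5C replicate 1 (0.0312 and 0.0371). Gene sums leave the members' own values and differences as they were, because each member is a gene of its own. Only the other rows of that fit change, so its calls are no separate estimate for the members. Gm43322 was at 3.23, 2.63 and 2.54 FPKM in STG, 1.67, 1.62 and 1.39 in CTG, 2.45, 2.79 and 3.23 in SSp5C and 3.35, 3.23 and 4.17 in CSp5C. On the positive side Gm42847 had 0.27 ± 0.20 and 2610306O10Rik, in the co-chaperone gene Bag3, 0.25 ± 0.34, with adjusted p-values of 0.391 and 0.654. In 50 of 474 members tested in both tissues the CTG libraries all lay below STG and the CSp5C libraries all above SSp5C. Over all classes, these 50 members included, 63 of 1208 rows did so.

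This was a shift of whole classes, the members and sense intronic rows among them, and not only of named members. In TG 15 of 16 tested rows of the class misc_RNA were lower in CTG too, with a median of -0.40. So were 76.1% of processed transcript, 70.4% of lincRNA and 69.5% of antisense rows. The median deviation of members in host introns from their own mean was 0.39, 0.13 and 0.19 (log2) in STG, 0.00, -0.03 and -0.17 in CTG, -0.30, -0.20 and -0.06 in SSp5C and -0.10, 0.03 and 0.14 in CSp5C. Sense intronic rows had nearly the same values, from 0.34 in STG replicate 1 to -0.27 in SSp5C replicate 1. The hosts' values stayed between -0.08 and 0.07, and those of all protein-coding genes between -0.04 and 0.05. The summed FPKM of the 830 members ranged from 705 in SSp5C replicate 1 to 1188 in STG replicate 1, the library with the pituitary transcripts. Group means of the estimated depth were 26100000 fragments in STG, 29400000 in CTG, 28300000 in SSp5C and 26200000 in CSp5C. By these means the groups with higher members had the lower depth. Libraries with 27400000 fragments or fewer all had a median deviation above 0 in members of host introns (0.00256 in CTG replicate 1). Those with 27800000 or more all lay below 0. CSp5C replicate 1 had 28500000 fragments and -0.10, SSp5C replicate 1 had 28100000 and -0.30, and CTG replicate 3 had 31800000 and -0.17. The part of depth and of pituitary, granulocyte, bone or muscle transcripts in this shift was not tested. Without STG replicate 1 and CTG replicate 1 the median C minus S difference in TG was -0.25.

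**Figure D5:**
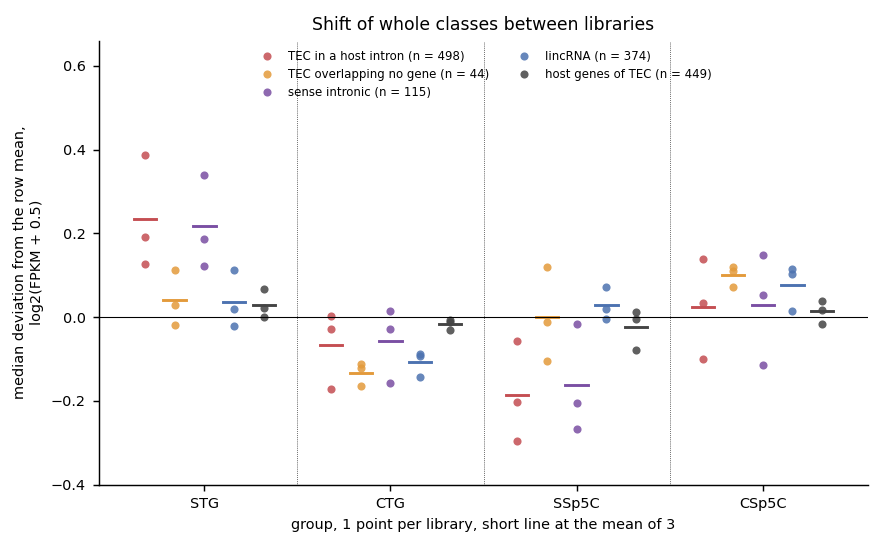
Each point is 1 library, and its height is the median over a class of the deviation of log2(FPKM + 0.5) from the transcript's or gene's own mean over the 12 libraries; short lines are the means of 3 libraries. TEC transcripts in host introns (red) and sense intronic rows (purple) move together, from 0.39 and 0.34 in STG replicate 1 down to -0.30 and -0.27 in SSp5C replicate 1, while the hosts (dark grey) stay within -0.08 and 0.07.

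Of the 830 members, 2 were listed at 0 in all 6 Sp5C libraries and none in all 6 TG libraries. Gm44069 (chr6:136847744-136848249, minus strand), which overlaps no protein-coding gene and lies 202 bases from the end of Art4, was at 1.08, 1.04 and 0.527 FPKM in STG and 0.969, 0.475 and 0.123 in CTG. Gm43377 (chr5:35396098-35396552, plus strand) lies in an intron of Hmx1, a homeobox transcription factor of sensory ganglia and the ear. It was at 0.626, 0.816 and 0.633 FPKM in STG and 0.204, 0.590 and 0.460 in CTG. Hmx1 averaged 2.66 ± 0.650 in TG against 0.0439 ± 0.0751 FPKM in Sp5C (SD, n = 6; 2.52 ± 0.14, adjusted p = 2.23e-08, limma). Both members fell under the filter over 12 libraries and were not tested between the tissues. At 506 and 455 bases they are short, so few fragments stand behind each value.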

How the data were processed

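RNA libraries of ribosome-depleted total RNA were made with a directional kit, per the labels' protocols. Per the submitters' processing notes, HISAT2, StringTie 1.3.1 and Cuffdiff 2.1.1 were used; the build and annotation behind them are not stated there. FPKM per transcript, as deposited by the authors, were read for annotated long non-coding and for protein-coding transcripts. Rows with Gene_type TEC are the members. They, the marker lists and the named members were chosen with earlier results of these data known. Transcripts were placed in GENCODE M21 by identifier, host genes included, since the deposited tables hold no coordinates; the files' clone-based names were replaced by M21 names. Log2(FPKM + 0.5) of rows with a mean of at least 0.5 FPKM over the libraries compared was fitted with limma 3.58.1 (trend, robust; R 4.3.3), with Benjamini-Hochberg adjustment over the whole annotated table and a threshold of 0.05; the code was tested on simulated data. FPKM of a host is the sum of its transcripts. Errors are SD for levels and SE for log2 differences.

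Members were named by rule: the 10 with the highest mean, the 10 largest called differences without overlap in each direction between the tissues, the 3 smallest p in each direction for C against S where none passed, 2 in each direction for the difference of effects, 3 that went against their host (1 of them is not reported here), and those at 0 in a whole tissue; those around Ube3a and Sox2ot and in Dlg2, Ank2 and Kcnip4 outside this rule were chosen after their values were seen. Alternatives were other pseudocounts (0.1 and 1), other filters, gene sums, quantile normalization, scaling by protein-coding transcripts, replicate blocks, single letters, a joint fit and leaving out each library. Centring on TEC rows and leaving out STG replicate 1 with CTG replicate 1 were added after seeing the data. The table of unannotated transcripts was not used here.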

Additional observations from a re-analysis of the deposited data

Results flagged for a closer look

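In 10 of 90 groups of 6 libraries of the named members, 1 library stood apart from the other 5 by more than 0.625 of the whole range, where chance marks about 1 group in 20. That rate holds for independent groups of one kind, whereas these groups share the same 12 libraries and each holds both S and C libraries, so the count is not read against it. In STG replicate 1, 89.1% of the tested members were above their own mean. CSp5C replicate 3 was the highest Sp5C library for 4 members: Gm36989 (6.75 FPKM, the others up to 4.84), Gm42583 (3.93, up to 2.53), Gm44831 (4.39, up to 2.45) and Gm48542 (2.13, up to 1.49). STG replicate 1 was the highest TG library for 4: Gm42583 (0.536 FPKM, the others up to 0.10), Gm47590 (0.827, up to 0.414), Gm48798 (5.72, up to 3.68) and Gm37060 (1.67, up to 1.02). Gm10524 reached 7.08 in STG replicate 3 with the other TG libraries up to 5.89, and 2610306O10Rik reached 1.76 in CTG replicate 2 with the others up to 1.06.

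For 4 named members every CTG library lay below every STG library while every CSp5C library lay above every SSp5C library. The difference of both effects was -0.79 for Gm36989 (log2; -0.47 in TG, 0.33 in Sp5C), -0.63 for Gm37626 (-0.52 and 0.11), -0.94 for Gm38157 (-0.30 and 0.64) and -0.97 for Gm43322 (-0.68 and 0.30), and none of the 4 passed the adjusted test of the difference with all libraries, transcript by transcript. Gm43322 passed it with gene sums, which leave its own values unchanged (adjusted p = 0.0477, limma), and without CSp5C replicate 1 (0.0371).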

How the results depend on the processing

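Of 1288 re-estimates of 56 results on named members, 1268 kept their direction and side of the threshold, 10 no longer passed, 8 newly passed and 2 changed sign (Gm37060 among S libraries alone, 0.00101, adjusted p = 0.996; Gm36989 among C libraries alone, -0.0768, adjusted p = 0.759). Between the tissues, without a filter 250 of 830 members were higher and 159 lower in TG. In a refit of only the rows with a mean of at least 1 FPKM, 124 of 288 were higher and 50 lower. The same 288 members had 121 and 49 in the main fit. Among S libraries 260 of 592 were higher and 45 lower (median 0.392), and among C libraries 68 of 574 were higher and 122 lower (median -0.103). Shares over all rows are not given here without a filter, at 1 FPKM, after centring or with the replicate block. Centring each library on its TEC rows, with 157 higher and 158 lower of 565, sets the members' median near 0 by its construction. Its medians (-0.0114 here) therefore say nothing of stability. For C against S in TG the median was -0.0791 after quantile normalization and 0.0174 after centring, and the fit of all 12 libraries called 6 lower; in Sp5C the median was 0.0988 and 0.00933. For the difference of both effects the median was -0.717 and -0.375 with pseudocounts of 0.1 and 1, -0.183 after quantile normalization and -0.0142 after centring. Gene sums, which change only rows other than the members, called 32 negative. Leaving out 1 library each gave 0 to 96 negative calls there (96 without CSp5C replicate 1), and medians of 0.111 to 0.183 between the tissues, -0.337 to -0.217 in TG, 0.147 to 0.304 in Sp5C and -0.568 to -0.439 for the difference. Why these values moved was not tested. The estimated median of 33.5 to 63.0 fragments per member limits single calls.

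With the replicate number as a block, 192 of 577 members were higher and 93 lower in TG, and 0 were called in the other comparisons. Deviations of same-numbered libraries correlated by 0.409, 0.279 and 0.195 between CTG and CSp5C, where differently numbered ones gave -0.292 to 0.0984. Between STG and SSp5C the same-numbered values were 0.0596, 0.133 and 0.00155, and the others -0.129 to 0.0623. Between STG and CTG, both of TG, same-numbered libraries had 0.0378, -0.0940 and 0.00223, and the others -0.100 to 0.106. Between SSp5C and CSp5C, both of Sp5C, same-numbered libraries had 0.139, -0.0217 and 0.295, and the others -0.381 to 0.249. Whether a shared number means a shared animal is not stated, and the main fits did not use the number.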
